A study of Homo sapiens with 6 samples.

Results

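The ETS transcription factors are the proteins that share the ETS DNA-binding domain, and 10 of their genes are described here, chosen by symbol: ETV1, ETV4, ETV5, ERG, FLI1, ELF1, ELF3, EHF, ETS1 and ETS2. All 10 were found among the 27968 genes of the tables, with 41 of the 70006 transcripts. They were compared between A549 and H23, established human cell lines from lung adenocarcinomas. Each line gave 3 libraries, 1 for each of 3 independent cultures left untreated. A549 was grown in DMEM and H23 in RPM1640 (as the labels spell it), both with serum, so medium and line cannot be told apart. Libraries of total RNA were made after removal of ribosomal RNA. No genotype, transgene or age is part of the design, and each line stands for a single tumour.

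An ETS protein binds DNA through a winged helix-turn-helix that reads a GGAA core, so members differ less in the site they read than in their partners, their regulation and the cells that make them. The PEA3 subfamily (ETV1, ETV4, ETV5) lies downstream of receptor tyrosine kinases and ERK and is repressed by Capicua. ETS1 and ETS2 are activated by ERK and cooperate with AP-1 and RUNX factors. ERG and FLI1 belong to endothelial and blood cells and are known in cancer as fusion partners, while ELF3 and EHF belong to epithelia, the airway among them.

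The A549 libraries held 23399562 to 25348083 estimated counts and the H23 libraries 29395795 to 42421642, which sets the smallest level that 3 counts can show at 0.118 to 0.128 CPM (counts scaled to library size) for A549 and 0.0707 to 0.102 CPM for H23. H23 replicate 1 stood apart: a chi-square per gene was 103 and 130 between it and the other H23 libraries, against 5.44 between those and 3.81 to 3.99 between A549 libraries. Genes under 200 bases took 15.7% to 19.7% of all TPM (the level of a gene per length, relative to all others) in A549 and 0.112% to 0.242% in H23, which lowers the TPM of every other gene in A549. The gene with the most TPM held 11.4% to 13.3% in A549 and 1.99% to 2.88% in H23. In A549 it was RNA5-8SN4 in replicate 1 and RMRP in replicates 2 and 3. The keratin gene KRT8 was at 1430 to 1446 TPM in A549 and 1320 to 1501 TPM in H23. The distal lung factor gene NKX2-1 had 0 counts in A549 and 1.95 to 2.61 TPM in H23, and the surfactant gene SFTPC was at most at 0.14 TPM in A549 and at 0 counts in H23. FOXA2 and FOXA1, factors of lung and gut epithelium, went the other way from NKX2-1, with 14.8 ± 0.538 and 4.45 ± 0.121 TPM in A549 and 0.333 ± 0.0379 and 1.69 ± 0.214 TPM in H23 (log2 folds 6.03 ± 0.14 and 1.95 ± 0.12). In such bulk RNA, fewer cells with a transcript and less of it per cell cannot be told apart.

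Promoter sequence is shown for 3 members that differed strongly between the lines: ELF3 and ETS2, higher in A549, and ERG, lower in A549. ERG and ETS2 are next to each other among the protein-coding genes of chromosome 21. Each run is the 250 bases before a transcript start from RefSeq on GRCh38.p14, a newer build than the hg19 of the files, and capitals mark GGAA or its reverse complement TTCC. The positions are chr1:202010337-202010586 (plus strand) for ELF3, chr21:38805679-38805928 (plus strand) for ETS2 and chr21:38660668-38660917 (minus strand) for ERG.
ELF3: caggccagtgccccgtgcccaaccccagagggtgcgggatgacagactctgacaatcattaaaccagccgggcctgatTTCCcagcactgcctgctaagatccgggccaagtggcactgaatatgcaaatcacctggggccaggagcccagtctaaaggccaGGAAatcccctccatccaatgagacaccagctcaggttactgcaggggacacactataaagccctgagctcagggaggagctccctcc
ETS2: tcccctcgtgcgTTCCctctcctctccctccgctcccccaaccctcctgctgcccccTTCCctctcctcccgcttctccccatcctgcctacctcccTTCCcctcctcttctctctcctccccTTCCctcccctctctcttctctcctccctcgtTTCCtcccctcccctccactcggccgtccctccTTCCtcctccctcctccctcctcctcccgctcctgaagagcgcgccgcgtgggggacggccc
ERG: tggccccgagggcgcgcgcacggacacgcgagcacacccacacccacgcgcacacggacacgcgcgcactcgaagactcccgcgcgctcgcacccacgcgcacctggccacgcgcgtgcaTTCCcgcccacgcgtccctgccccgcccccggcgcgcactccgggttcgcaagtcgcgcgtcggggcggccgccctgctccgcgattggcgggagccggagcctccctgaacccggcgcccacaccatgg

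The GGAA core, searched on both strands, was found 2 times before ELF3, 6 times before ETS2 and 1 time before ERG. It lies in 92.7% of the 35116 RefSeq promoter windows of this length, and 9.14% hold at least 6. The extended core CCGGAAG, which contains GGAA, the Capicua octamer TGAATGAA and the AP-1 site TGANTCA were in none of these 3 windows, and lie in 8.52%, 1.40% and 6.57% of all windows. RefSeq promoters were found for 6 of the 10 members. The table has 4 windows for ERG, with 1, 4, 1 and 2 matches of GGAA, and 2 for ETS2, with 3 and 6. The windows shown start the transcript that led in at least 1 library. For ERG this is NM_001243428, at 51.3% in H23 replicate 3 and 0% in H23 replicates 1 and 2. EHF differed more than ETS2 (log2 fold 4.74 against 3.14), but none of its windows was matched to the start of a leading transcript. Those windows hold 1 and 0 matches of GGAA.

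A549 and H23 differed in which of the 10 genes had the highest levels. ELF3, with 43.4% ± 0.823 of the summed TPM of the 10 (SD, n = 3), led in A549, followed by ETS2 with 16.9% ± 0.599 and ETV4 with 12.0% ± 0.601. In H23, ETV4 took 66.7% ± 3.30, followed by ETS1 with 14.3% ± 1.85 and ETV5 with 10.7% ± 1.70. These shares are taken within a library, so the TPM held by short RNAs does not enter them. The epithelial pair ELF3 and EHF together made up 43.9% ± 0.846 in A549 and 0.0418% ± 0.00882 in H23. The PEA3 trio made up 22.4% ± 0.691 in A549 and 79.2% ± 1.98 in H23.

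**Figure D1:**
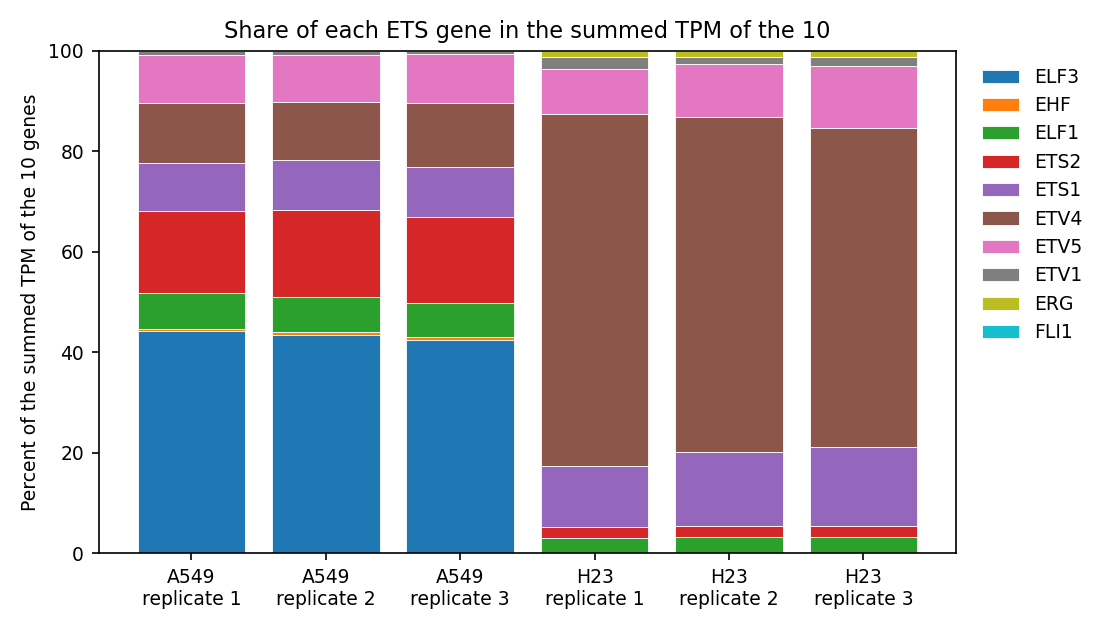
Share of each of the 10 ETS genes in their summed TPM (percent, vertical axis) in each library, A549 replicates 1 to 3 and then H23 replicates 1 to 3. ELF3 is the largest block in each A549 library and ETV4 in each H23 library, with means of 43.4% and 66.7%.

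In the order of TPM within A549, ELF3, ETS2, ETV4, ETS1, ETV5, ELF1, ETV1, EHF, FLI1 and ERG followed each other, and neighbours were separate in all 3 libraries except ETS1 with ETV5 and FLI1 with ERG, whose values overlapped. The order in H23 was ETV4, ETS1, ETV5, ELF1, ETS2, ETV1, ERG, FLI1, EHF and ELF3. There the overlapping neighbours were ETS1 with ETV5, ETS2 with ETV1, and EHF with ELF3. Summed over the 10, the level was 145 to 157 TPM in A549 and 192 to 217 TPM in H23. Short RNAs lower the TPM of the other genes in A549, so these sums do not rank the lines.

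**Figure D2:**
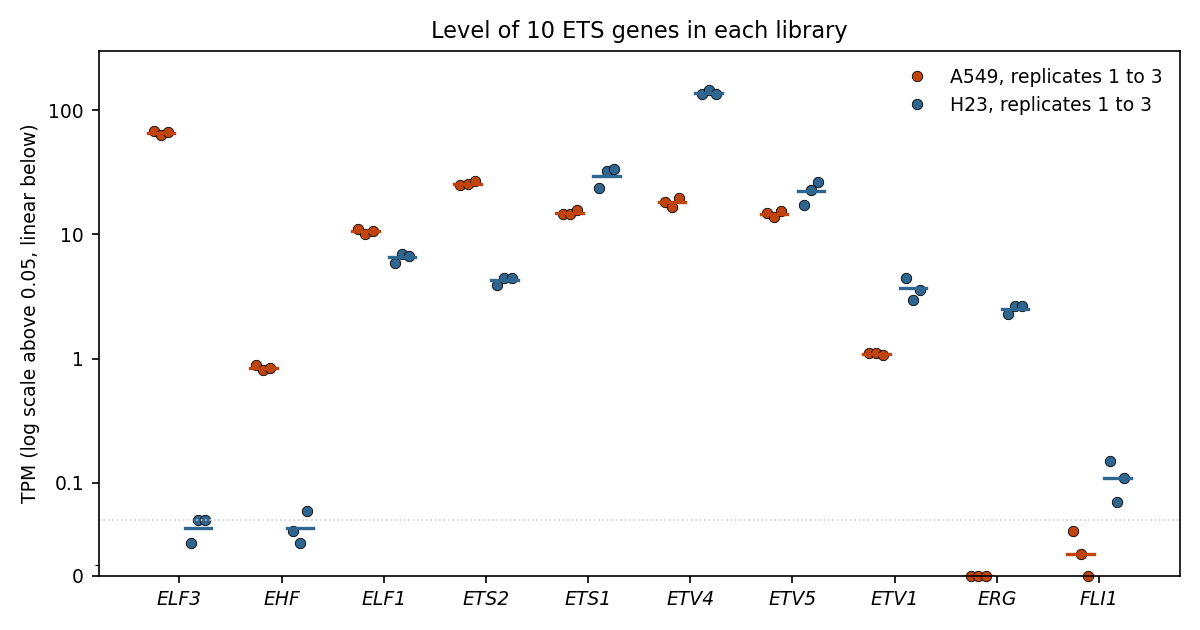
TPM of each gene in the 3 A549 libraries (left of each pair) and the 3 H23 libraries (right), on an axis that is logarithmic above 0.05 TPM and linear below. Points are libraries and bars are means. ELF3 stands at 63.1 to 67.6 TPM in A549 and at 0.03 to 0.05 TPM in H23, and ERG at 0 in A549 and 2.28 to 2.66 TPM in H23.

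The lines were compared gene by gene with edgeR's quasi-likelihood test and Benjamini-Hochberg adjustment over all 15426 genes with enough counts. Log2 folds are A549 over H23, with an approximate standard error. Of the 10 members, 9 could be tested: 4 were higher in A549 (ELF3, EHF, ETS2, ELF1), 4 were lower (ERG, ETV4, ETV1, ETS1) and ETV5 did not pass. Among all tested genes 77.2% passed, 37.6% higher in A549 and 39.6% lower, so 8 of 9 is a share near that background. The libraries of the lines did not overlap for those same 8 members, nor for 82.1% of all tested genes. The members' median log2 fold was -0.04, against -0.03 over all genes. That median over all genes was -0.16 when upper quartile scaling was used and -0.41 on the log2(TPM + 1) scale, and small folds are to be read relative to it. Of the 9 tested members, 6 kept the same call under all 16 alternatives, and the exceptions were ETV5, ELF1 and ETS1. Without H23 replicate 1 all 9 passed, with a log2 fold of -0.16 for ETV5 (edgeR adjusted p = 0.0152) and the other 8 in the same direction as with it.

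ELF3, an epithelial factor that drives differentiation and inflammatory genes, had 67.6, 63.1 and 66.7 TPM in A549, against 0.03, 0.05 and 0.05 TPM in H23. These values rest on 4598, 4519 and 4134 counts in A549, against 2, 3 and 4 counts in H23. Every A549 library was far above every H23 library. Scaled for depth it averaged 183 ± 6.87 CPM (A549) and 0.0824 ± 0.0258 CPM (H23), and its log2 fold was 11.06 ± 0.17 (SD and n = 3 for levels, edgeR adjusted p = 9.02e-08). Of the tested genes, 0.726% had an absolute fold of at least this size. The antisense gene ELF3-AS1 overlaps it and had 87, 92 and 71 counts in A549, against 4, 0 and 5 counts in H23. How the counting used strand is not given in the sources used here, so reads of the pair may not be fully separate.

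EHF, the relative of ELF3 that is also restricted to epithelia, was the weaker of the pair in A549. It had 107, 103 and 93 counts in A549, against 6, 3 and 8 counts in H23, without overlap. In TPM this was 0.89, 0.81 and 0.84 in A549 and 0.04, 0.03 and 0.06 in H23. The log2 fold was 4.74 ± 0.24 (edgeR adjusted p = 3.79e-06), and 8.23% of tested genes had one at least as large in size. ELF3 exceeded EHF in TPM 76.0, 78.0 and 79.4 times in the A549 libraries. EHF lies next to the related gene ELF5 on chromosome 11, and ELF5 had 0 counts in all 6 libraries.

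ELF1, a factor present in many cell types and best known from lymphocytes, was moderately higher in A549. Its TPM was 10.98, 10.12 and 10.7 in A549, against 5.86, 6.96 and 6.73 in H23. The lines did not overlap, and the log2 fold was 1.26 ± 0.09 (edgeR adjusted p = 1.89e-05). With a trend with gene length and GC content taken out, an alternative chosen after seeing the data, the fold was 0.38 and did not pass (edgeR adjusted p = 0.0941, the highest among its alternatives, of which the lowest was 5.4e-26). WBP4, which shares 167 bases with ELF1 on the opposite strand in GENCODE 29, had 436, 482 and 394 counts in A549. In H23 it had 801, 268 and 320 counts, and its share in the reads given to ELF1 was not tested. In H23 replicate 1, 24.0% of ELF1 was assigned to the form NM_001145353, which had 0% to 2.64% in the other 5 libraries.

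ETS2 and ETS1, paralogs that ERK phosphorylates in their N-terminal region, differed between the lines in opposite directions. ETS2 had 24.9, 25.2 and 26.9 TPM in A549, against 3.91, 4.48 and 4.44 TPM in H23. The lines were apart in every library, with 86.5 ± 1.25 CPM (A549) and 9.83 ± 0.240 CPM (H23, log2 fold 3.14 ± 0.08, edgeR adjusted p = 3.22e-07). ETS1 had 14.6, 14.5 and 15.6 TPM in A549, against 23.5, 32.1 and 33.6 TPM in H23. All 3 A549 values lay below the lowest H23 value, which came from replicate 1. Means were 70.9 ± 0.492 CPM (A549) and 95.3 ± 13.8 CPM (H23), and the log2 fold of ETS1 was -0.43 ± 0.12 (edgeR adjusted p = 0.0136). Its call was lost when any A549 library was left out, with edgeR adjusted p of 0.053 to 0.0548, while its other alternatives gave 5.21e-11 to 0.0446. ETS1 was lower in A549 under each alternative, with log2 folds of -0.97 to -0.35. The ratio of ETS2 to ETS1 in TPM, taken within a library, was 1.70, 1.75 and 1.72 in A549 and 0.166, 0.140 and 0.132 in H23, so the paralog with the higher level differed between the lines.

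The PEA3 factors were led by ETV4, which promotes invasion and metastasis in several carcinomas. ETV4 had 18.2, 16.6 and 19.8 TPM in A549, against 134, 144 and 134 TPM in H23. No library of a line came near the other line, with 34.7 ± 1.77 CPM (A549) and 162 ± 7.13 CPM (H23, log2 fold -2.23 ± 0.09, edgeR adjusted p = 1.26e-06). DHX8, which overlaps ETV4 on the opposite strand, had 3433, 3632 and 3447 counts in A549, against 4665, 5415 and 7635 counts in H23. ETV1, the PEA3 member known from prostate cancer fusions and gastrointestinal stromal tumours, had 1.11, 1.12 and 1.07 TPM in A549, against 4.48, 2.96 and 3.59 TPM in H23. Its lines did not overlap, although H23 spread widely with replicate 1 highest, and its log2 fold was -1.20 ± 0.20 (edgeR adjusted p = 0.00116). With the trend with length and GC content removed, that fold was -2.25.

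ETV5, which takes part in branching of the embryonic lung in the mouse, did not follow the other PEA3 genes. It had 1344, 1310 and 1261 counts in A549, against 1763, 1671 and 2734 counts in H23, or 54.2 ± 1.77 CPM (A549) and 55.6 ± 8.89 CPM (H23). On that scale the values overlapped, with a log2 fold of -0.04 ± 0.13 (edgeR adjusted p = 0.80). On the TPM scale its 14.9, 13.8 and 15.3 in A549 lay below its 17.4, 22.8 and 26.4 in H23 (log2 fold -0.55 on log2(TPM + 1), limma adjusted p = 0.0143, against 0.0133 to 0.975 among all its alternatives). The sign of its fold also turned with the removal of the trend with length and GC content, to 0.14, and without A549 replicate 2 or H23 replicate 3. DGKG, which shares 4651 bases with ETV5 on the same strand in GENCODE 29, had 514, 537 and 426 counts in A549, against 1, 1 and 2 counts in H23, and its share in the reads given to ETV5 was not tested. ETV4 exceeded ETV5 by 1.22, 1.20 and 1.29 times in TPM in A549, and by 7.73, 6.33 and 5.09 times in H23.

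ERG, the endothelial ETS factor, was at 0 counts in all 3 A549 libraries, against 285, 213 and 292 counts in H23. The H23 levels of 2.28, 2.65 and 2.66 TPM were close to each other. Against a floor of 3 counts over the A549 libraries, ERG was at least 173-fold lower in A549 (edgeR adjusted p = 1.1e-05). Its close relative FLI1, needed for megakaryocytes and blood vessels, was near the floor in both lines, with 3, 2 and 0 counts in A549 and 15, 4 and 11 counts in H23. FLI1 had too few counts for the main test; without the filter on low counts its edgeR adjusted p was 0.0686, and DESeq2 gave 0.109. The antisense gene SENCR overlaps FLI1 and had 0 counts in A549 and at most 3 in an H23 library.

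Genes that ERG and FLI1 control in endothelium, listed together with other markers of that cell type, were mostly near 0 in both lines. Of 14 listed genes 3 had enough counts to be tested, 2 being higher in A549 and 1 lower. For this list and the other marker lists below, the share of all tested genes that passed was 77.2%. PECAM1, KDR and CDH5, which define endothelium, reached at most 0.05 TPM in an A549 library and 0.15 TPM in an H23 library. VWF, also listed, had 0 counts in A549 and 10, 30 and 29 counts in H23, at most 0.19 TPM. TEK went the other way, with 11 counts over the A549 libraries and 1 over the H23 libraries. The list summed to 42.7 to 46.7 TPM in A549 and 82.5 to 91.3 TPM in H23, of which EGFL7, a secreted vessel factor, gave 31.8 to 34.6 TPM in A549 and 78.5 to 85.4 TPM in H23. The log2 fold of EGFL7 was -0.77 ± 0.08 and that of the adhesion molecule gene ESAM was 1.59 ± 0.20. Of 8 blood cell markers, PTPRC, which defines white blood cells, was at most at 0.01 TPM in A549 and at 0 in H23. Of the list 2 were tested and both were lower in A549, and it summed to 0.86 to 1.35 TPM in A549 and 9.22 to 14.8 TPM in H23. Most of that came from the actin-binding gene CORO1A, at 0.893 ± 0.189 TPM in A549 and 12.0 ± 3.11 TPM in H23. Of 8 fibroblast markers 5 were tested, 1 being higher and 2 lower in A549. The 8 summed to 8.59 to 10.4 TPM in A549 and 6.35 to 10.2 TPM in H23. These similar sums came from different genes: THY1, a surface glycoprotein gene, had 6.09 to 7.37 TPM in A549 and 0 counts in H23, at least 473-fold higher in A549, while the collagen gene COL1A1 had 1.52 ± 0.174 TPM in A549 and 6.10 ± 1.41 TPM in H23. Of 11 lung epithelial markers 4 were tested, 2 being higher and 1 lower in A549. The 11 summed to 19.5 to 20.7 TPM in A549 and 5.16 to 6.30 TPM in H23. FOXA2 gave 14.2 to 15.1 TPM of the sum in A549 and 0.29 to 0.36 TPM in H23. The part of these markers in the differences of the ETS genes was not tested.

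The mix of transcripts within a member was tested with edgeR's gene-level test of transcript usage in the 6 members with at least a pair of transcripts above the filter. ETV4, ETS1 and ETS2 passed, and ETV1, ELF3 and EHF did not, where 25.9% of all 7539 tested genes passed. In ETV4 the shortest of 5 listed transcripts, NM_001261439 with 1574 bases, made up 1.73%, 5.69% and 12.8% of the ETV4 transcripts in A549, against 52.1%, 24.8% and 21.1% in H23. The A549 shares lay below all H23 shares, and H23 replicate 1 was far above the rest. In level this transcript had 0.31, 0.94 and 2.54 TPM in A549, against 70.0, 35.8 and 28.3 TPM in H23. Its GENCODE model codes for 207 amino acids against 484 for NM_001986. It has another start and the same stop, and 4 of its 5 coding exons are identical to ones of NM_001986. The ETS domain lies in the C-terminal part of ETV4. The form NM_001986 made up 33.1%, 26.3% and 41.0% in A549, against 16.1%, 31.7% and 31.7% in H23, with overlap. NM_001261438, which codes for 445 amino acids, made up 43.0%, 39.0% and 19.95% in A549, against 26.9%, 35.4% and 33.5% in H23, also with overlap. The usage call of ETV4 (edgeR adjusted p = 0.00481) was lost without H23 replicate 1, at an adjusted p of 0.0829, and without A549 replicate 2, at 0.0648, and was lowest at 0.00197 among its alternatives.

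**Figure D3:**
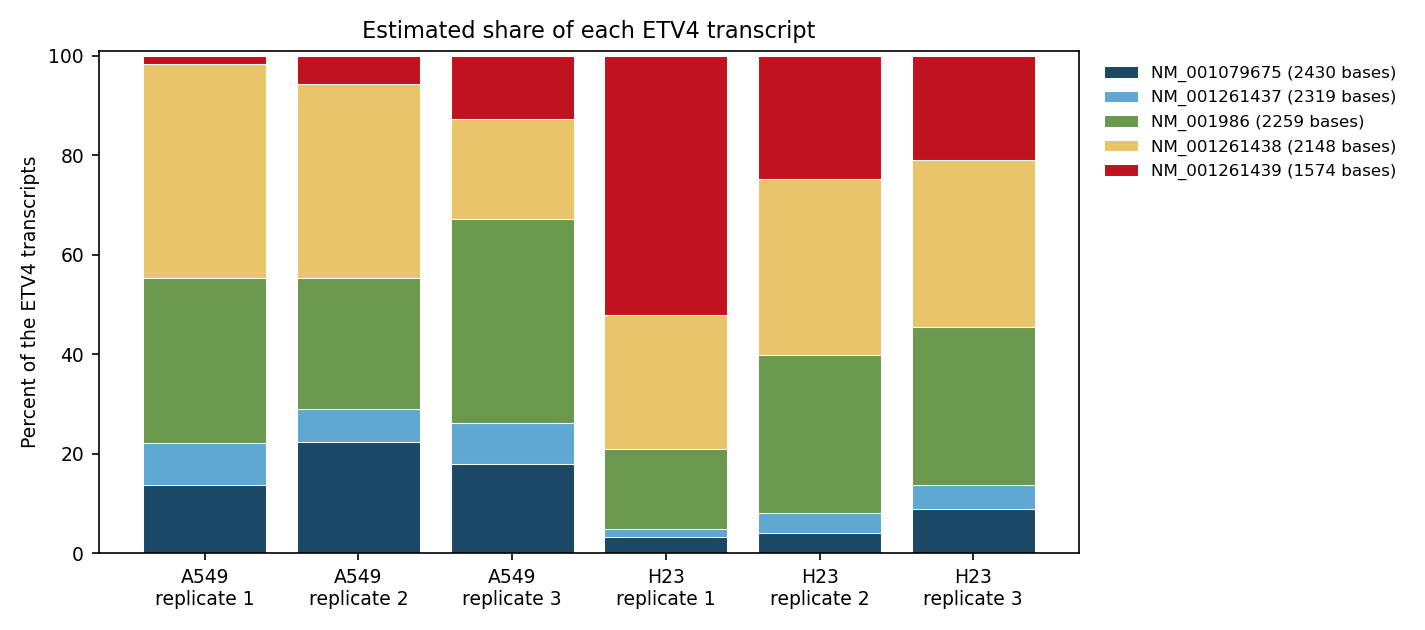
Estimated share of the 5 listed ETV4 transcripts (percent, vertical axis) in each A549 and H23 library, stacked from the longest to the shortest. The shortest form, at the top of each bar, takes 1.73% to 12.8% in A549 and 21.1% to 52.1% in H23, where replicate 1 has the largest share.

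ETS1 was led by NM_005238 in both lines, with 98.1%, 97.7% and 99.0% in A549, against 80.3%, 90.6% and 91.1% in H23. The rest of H23 replicate 1 was assigned mainly to NM_001162422, at 15.6%, a form that codes for 225 amino acids against 441 and that was at 0 in the other 5 libraries. The ETS1 usage call (edgeR adjusted p = 0.0217) held without H23 replicate 1, at 1.6e-04, and failed under 8 of its 9 alternatives, with adjusted p up to 0.271. In ETS2 the form NM_001256295 was at 0.94%, 1.78% and 0.96% in A549 and at 0 in H23. Those A549 shares rest on 20.2, 40.9 and 20.4 counts, and all of ETS2 had only 362, 300 and 421 counts in H23. The leading form NM_005239 held the rest (edgeR adjusted p for usage 0.00128). That call was lost under edgeR's Simes test, at 0.0583, the highest adjusted p among its alternatives. ELF3 was nearly all NM_004433, at 94.9% to 95.1% in A549 and 100% in H23, where the share rests on 2, 3 and 4 counts. The other listed ELF3 form codes for the same 371 amino acids. ETV1 was led by NM_004956 in all 6 libraries, at 58.3% to 92.2% in A549 and 69.5% to 76.8% in H23. ETV5 has a single listed transcript. For ERG the estimated leader changed between H23 libraries: NM_001136154 held 94.3% and 39.2% in replicates 1 and 2 and 0% in replicate 3, where NM_001243428 held 51.3%. These 2 forms code for proteins of the same length, and the split, of at most 292 counts over 10 listed forms, differed between the H23 libraries.

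The family holds 28 genes in all, and 11 of the other 18 were tested. Of these, 4 were higher in A549, 5 lower and 2 did not pass (median log2 fold 0.08). Of all tested genes 37.6% were higher in A549 and 39.6% lower, so this division is near that background. SPDEF, a factor of secretory epithelium such as goblet cells, had 4.23, 4.50 and 4.56 TPM in A549, against 0.14, 0.03 and 0.20 TPM in H23 (log2 fold 5.61 ± 0.34, edgeR adjusted p = 9.23e-06). ELF2, a relative of ELF1, had a log2 fold of 1.57 ± 0.19 and ELF4, a factor of blood cells, one of 0.63 ± 0.17, whose call was lost on log2(TPM + 1) (limma adjusted p = 0.681). GABPA, which controls genes of mitochondria and ribosomes, had 7.47, 7.45 and 7.28 TPM in A549, against 7.92, 3.78 and 3.58 TPM in H23, where replicate 1 stood above the A549 libraries. Its log2 fold was 1.09 ± 0.34 (edgeR adjusted p = 0.0217), was 1.64 without H23 replicate 1, and missed the threshold in 7 of 16 alternatives, with an adjusted p of up to 0.723. Lower in A549 were ETV7, ETV3, ETV6, ELK1 and ELK3. ETV7, an interferon-induced repressor, had 3 counts over the A549 libraries and 119 over the H23 libraries, and was 26.0 times lower in A549 (95% counting interval 8.69 to 128). The repressor genes ETV3 and ETV6 had log2 folds of -1.58 ± 0.15 and -0.59 ± 0.11. ELK1 and ELK3, which act with serum response factor, had log2 folds of -0.57 ± 0.12 and -0.39 ± 0.10, and that of ELK1 turned to 0.015 once the trend with length and GC content was removed. For ELK4 and the ERK-controlled repressor gene ERF the log2 folds of 0.12 ± 0.22 and 0.08 ± 0.16 missed the threshold, and both were negative on log2(TPM + 1). The other 7 were too low to test: ELF5, ETV2, ETV3L, FEV, SPI1, SPIB and SPIC. FEV, a factor of serotonergic neurons, had 0 counts in A549 and 63 over the H23 libraries, and was at least 13.8-fold lower in A549. SPI1, which specifies myeloid cells and B cells, had 0 counts in A549 and 11 in H23.

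**Figure D4:**
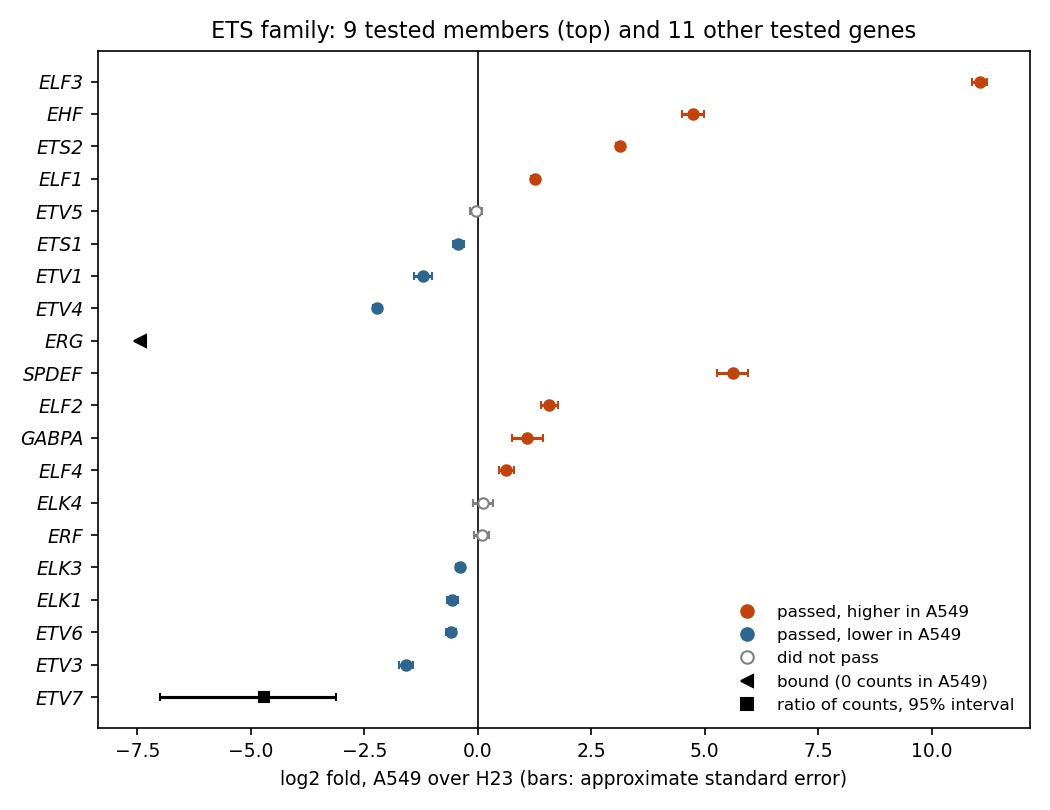
Log2 fold (A549 over H23, horizontal axis) with its approximate standard error for 9 tested members, at the top, and 11 other tested ETS genes. Filled points passed an adjusted p of 0.05, open ones did not, the triangle is the bound for ERG, at 0 counts in A549, and the square is the ratio of counts of ETV7 with its 95% interval. ELF3 has the largest fold, at 11.06, and SPDEF leads the other genes at 5.61.

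Among genes listed as targets of the PEA3 factors or of Capicua, brakes on the ERK cascade were found in both directions. These genes answer to ERK signalling in general and not to these factors alone. All 15 were tested: 3 were higher in A549, 9 were lower and 3 (CCND1, EPHA2, SHC3) did not pass. The median log2 fold was -1.23, against -0.03 over all tested genes, of which 77.2% passed, 37.6% higher in A549 and 39.6% lower. SPRY4, an inhibitor of receptor tyrosine kinase signalling, was at 1.29 ± 0.0971 TPM in A549 and 26.6 ± 3.61 TPM in H23 (n = 3 each, log2 fold -3.80 ± 0.12, edgeR adjusted p = 6.39e-07). SPRED2, which holds back RAS signalling, had a log2 fold of -2.68 ± 0.10, and the AP-1 subunit gene FOSL1 one of -2.63 ± 0.21. DUSP6, the phosphatase that switches off ERK, picked with its values already known, had 4.52, 4.78 and 5.17 TPM in A549, against 33.0, 33.7 and 35.5 TPM in H23. The 3 that were higher in A549 also act as brakes on MAP kinase signalling. DUSP4, a nuclear phosphatase of MAP kinases, was at 56.3 ± 3.36 TPM in A549 and 11.6 ± 4.83 TPM in H23 (log2 fold 2.87 ± 0.30). DUSP5 and SPRED1 had log2 folds of 2.16 ± 0.12 and 1.27 ± 0.11. With the trend with length and GC content removed, 5 of the 15 were higher.

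**Figure D5:**
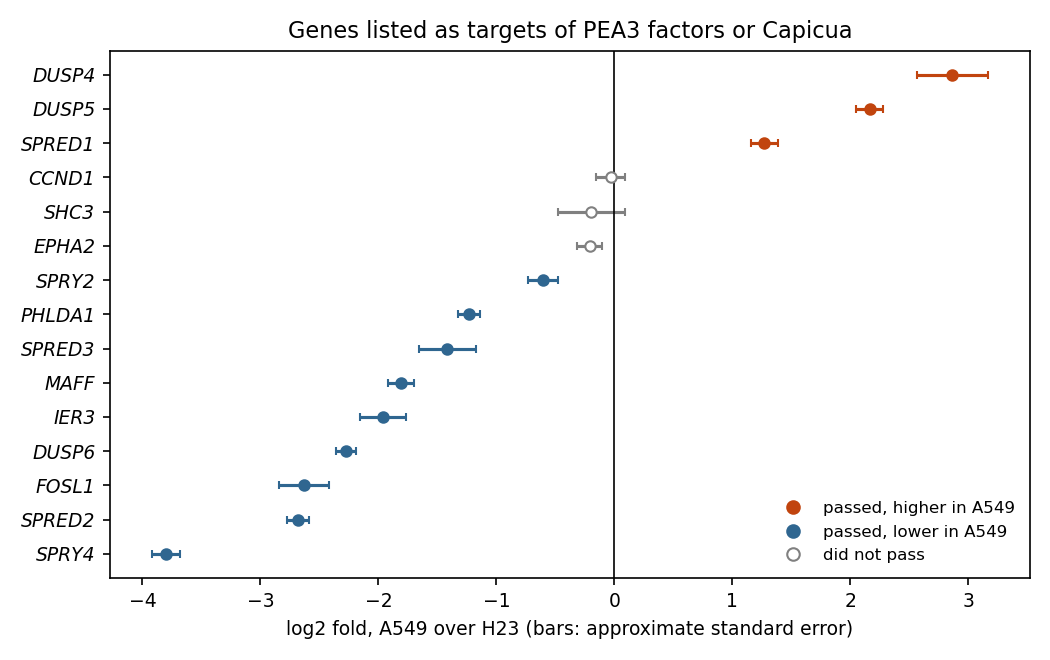
Log2 fold (A549 over H23, horizontal axis) with its approximate standard error for the 15 genes listed as targets of PEA3 factors or Capicua. The 9 filled points on the left run from SPRY4 at -3.80 upward, DUSP4, DUSP5 and SPRED1 lie on the right, and the open points did not pass.

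Partners and regulators of ETS proteins were found in both directions. All 20 listed were tested: 8 were higher in A549, 8 lower and 4 did not pass, with a median log2 fold of -0.13. Among all tested genes 37.6% were higher in A549 and 39.6% lower, so this split is near that background. On log2(TPM + 1) 4 of the 20 were called higher. TRIB2, an adaptor of the COP1 ubiquitin ligase, was at 0.02 ± 0.01 TPM in A549 and 8.81 ± 2.63 TPM in H23 (log2 fold -7.78 ± 0.40, edgeR adjusted p = 4.32e-06). FOS, the AP-1 subunit, was at 0.573 ± 0.0451 TPM in A549 and 27.4 ± 0.482 TPM in H23 (log2 fold -5.03 ± 0.13). RUNX1, a DNA-binding partner of ETS1, had a log2 fold of -2.09 ± 0.15. Higher in A549 were USP9X, a deubiquitinase that stabilises ERG, at 1.80 ± 0.21, GABPB1, the partner subunit of GABPA, at 1.56 ± 0.11, and DET1, which works with COP1, at 1.37 ± 0.12 on the log2 scale. CIC and COP1 were chosen after their values had been seen. CIC, which encodes Capicua, missed the threshold at a log2 fold of 0.29 ± 0.24, which was negative on log2(TPM + 1). COP1, which marks PEA3 proteins for degradation, passed at 0.48 ± 0.08 on the log2 scale, which turned to -0.068 on log2(TPM + 1).

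Genes listed as targets of ETS1 and ETS2 were tested in 6 of 10 cases. Of the 6, 1 was higher in A549, 4 were lower and 1 did not pass, where 77.2% of all tested genes passed. The interstitial collagenase gene MMP1 had 0 counts in A549 and was at 6.38 ± 2.35 TPM in H23, at least 181-fold lower in A549 (edgeR adjusted p = 1.76e-04). MMP10 and MMP9, other matrix proteases, had log2 folds of -2.55 ± 0.28 and -1.88 ± 0.25. PLAU, the urokinase gene, averaged 209 ± 5.88 CPM (A549) and 104 ± 13.8 CPM (H23, edgeR adjusted p = 0.000162). The median log2 fold of the 6 was -1.58.

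Epithelial genes listed as companions of ELF3 and EHF were found in both directions. Of 18 listed, 13 were tested, 5 being higher in A549, 7 lower and 1 not passing (median log2 fold -0.91). Over all tested genes 77.2% passed, 37.6% higher in A549 and 39.6% lower. KLF5, an epithelial factor, had a log2 fold of 2.90 ± 0.28, the claudin gene CLDN4 1.69 ± 0.19, and TGFBR2, a known target of ELF3, 0.98 ± 0.07. Lower in A549 were ESRP2, a splicing regulator of epithelia, at 0.0467 ± 0.0153 TPM in A549 and 7.25 ± 0.715 TPM in H23, and SPINT1, an inhibitor of membrane proteases, with a log2 fold of -3.28 ± 0.22. OVOL2, which keeps cells epithelial, had 1 count over the A549 libraries and 138 over the H23 libraries, and was 90.5 times lower in A549 (95% counting interval 16.0 to 3599). CDH1 and EPCAM, chosen after their values had been seen, had log2 folds of -1.43 ± 0.17 and -0.91 ± 0.20.

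The genes whose pattern was most like that of the most changed members were found by the distance of log2(TPM + 1) over the 6 libraries. For ELF3 these were GCNT3, CNTN1 and GPX1, at distances of 0.15, 0.27 and 0.36. GCNT3, the nearest, averaged 68.9 TPM in A549 and 0.00667 TPM in H23. For ERG, HAR1B lay at a distance of 0.13 and GPR4 at 0.20. HAR1B averaged 0.02 TPM in A549 and 2.57 TPM in H23, and GPR4 had 0 TPM in A549 and averaged 2.57 TPM in H23.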

How the data were processed

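RNA was sequenced from 3 cultures each of A549 and H23, with groups and replicate numbers taken from the labels. Per the submitters' processing notes, STAR 2.6.0c, RSEM 1.3.0 and the hg19 build were used. Annotation release, options and strand setting are not given in the sources used here. Per the file headers, the tables hold expected counts (reads that RSEM estimates for each gene or transcript) and TPM, which corrects for length and depth. The deposited percent values give a transcript's share of its gene. Lengths are in bases.

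Expected counts were rounded and tested with edgeR 4.0.16 in R 4.3.3: filterByExpr, TMM factors of 0.985 to 1.02 and the robust quasi-likelihood F test, with a threshold of 0.05 after Benjamini-Hochberg adjustment over all genes. CPM values are scaled with TMM and given as mean ± SD (n = 3). Standard errors were derived from the fold and its F statistic and are approximate. An exact permutation test of 3 against 3 cannot give p below 0.1. Usage was tested with diffSpliceDGE on 24779 transcripts. A line at 0 counts was given a floor of 3 counts over its libraries. Floors and intervals cover counting error only. Alternatives used DESeq2 1.42.0 and limma 3.58.1 (robust and trended). GC content came from GENCODE 29, which covered 96.2% of tested genes, and that release gave the coding models. The tests were first tried on simulated data. The alternative that removes a trend with length and GC content was chosen after seeing the data.

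Members and lists were chosen with earlier results of these data known. The rule for naming genes took all members, all other ETS genes, and up to 3 genes per direction from each list with the largest fold past the test and a mean TPM of at least 1, with the 3 genes nearest in pattern to ELF3 and ERG. 1 gene that this rule names is not reported here. Others were chosen after their values were seen. Lists were described by counts and medians, with no set test.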

Additional observations from a re-analysis of the deposited data

How the results depend on the processing

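Of the 9 tested members, ETV1, ETV4, ERG, ELF3, EHF and ETS2 kept direction and call under all 16 alternatives. On log2(TPM + 1), which understates the change of low genes, the log2 fold was 6.0 for ELF3 and 0.82 for EHF. ETV5 gave log2 folds of -0.55 on log2(TPM + 1) and -0.57 on log2(TPM + 0.1), both past the threshold in limma. It gave 0.14 with the trend with length and GC content removed, and -0.16 to 0.078 with single libraries left out, the extremes coming without H23 replicates 1 and 3. ELF1 gave 0.38 with the length and GC trend removed, and ETS1 gave -0.55 to -0.35 with single libraries left out. The cause was not tested.

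With the length and GC trend removed, ELK1 gave a log2 fold of 0.015 and ELK4 one of -0.95. ELK4 also gave -0.011 with upper quartile factors, -0.33 and -0.41 on the 2 TPM scales, -0.35 with the length trend removed, and -0.025 to 0.42 with single libraries left out. ERF gave -0.046 with upper quartile factors, -0.45 and -0.46 on the TPM scales, and -0.088 to 0.18 with single libraries left out. CIC gave -0.42 and -0.44 on the TPM scales and -0.13 with the length trend removed, and COP1 gave -0.068 and -0.071 on them.

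Over all genes, 3862 were called higher in A549 on log2(TPM + 0.1). On both TPM scales 2 other ETS genes and 4 partners and regulators were called higher. With the length and GC trend removed, 5 PEA3 or Capicua targets were. Targets of ETS1 and ETS2 had 2 higher genes without the filter, with DESeq2 and with the length and GC trend removed, and 1 to 2 with single libraries left out. The ERG and FLI1 list had 4 higher genes without the filter, 2 lower ones without the filter and with DESeq2, and 1 to 2 lower ones with single libraries left out.

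Replicate numbers shared by the lines did not pair the libraries: deviations of same-numbered libraries correlated at 0.10, -0.09 and 0.16, and A549 replicates 2 and 3 did not correlate best with their own number. With the replicate number as a block, usage adjusted p was 0.0755 for ETV4 and 0.0816 for ETS1, 1297 genes in all were called for usage, and no member changed its call in the gene test. The Simes test gave 0.271 for ETS1, 0.0583 for ETS2 and 1057 genes in all. ETS1 usage gave 0.0926 without the filter. With single libraries left out, usage adjusted p ranged over 0.00197 to 0.0829 for ETV4 and 1.6e-04 to 0.106 for ETS1. Few counts limit FLI1 in both lines and EHF and ELF3 in H23. The cause of the changing split of ERG into transcripts was not tested.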
